A study of Rattus norvegicus with 7 samples.

Results

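The genes described here encode the motors that walk along microtubules: kinesins with their light chains, cytoplasmic dynein with its partner complex dynactin, and the dyneins that beat cilia. They were chosen by symbol, as probes of genes whose names begin with Kif, Klc, Dctn or Dnah and a digit, or with Dync or Dynl. The array named 53 such genes through 66 probes, of 15443 named genes and 30367 probes in all. For 50 of them a probe exceeded background clearly on 3 or more of the 7 arrays: 29 kinesin genes, 20 of cytoplasmic dynein and dynactin, and 1 axonemal dynein, Dnah1. RefSeq lists 84 protein-coding genes that fit the rule, and the 31 that no probe was matched to, among them Kif1a, Kif21a, Kif4a, Klc2 and all other Dnah genes, were not analysed here. The class of axonemal dyneins therefore rests on a single gene.

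The tissue was the cerebellum of female Wistar rats at 21 days of age, hybridised to 1-colour Agilent arrays. The MDD group (methyl donor deficiency, n = 3 pups) was born to and nursed by dams on a feed short of folate and vitamin B12 and low in choline, and the CTRL group (n = 4 pups) to dams on standard chow. Either diet started a month ahead of pregnancy and lasted until weaning at day 21. Nothing in the labels says which pups had the same dam. The p-values reflect the spread between arrays of single pups, slide position included, and not the spread between dams. Markers of granule neurons (Gabra6, Neurod1, Zic1) and of Purkinje cells (Calb1, Pcp2, Car8) were well above background on all 7 arrays. These are whole-tissue samples, in which fewer cells of a type and less RNA per cell cannot be told apart.

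Kinesins carry vesicles, mitochondria and protein complexes mostly towards the plus ends of microtubules, which in axons point away from the cell body, and a further set of them builds and divides the mitotic spindle. Cytoplasmic dynein is the main motor towards minus ends and works together with dynactin, while dynein 2 returns cargo from the tip of the cilium. Light and intermediate chains join the motor to its cargo. The cerebellum in the weanling rat holds dense axons and dendrites that depend on such transport, and granule neurons have only just finished dividing.

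Few motor genes changed. By limma, with p adjusted by Benjamini-Hochberg across the 19991 genes and unnamed probes that were tested, 2 of the 50 rose in MDD (Kif22 and Kif20a, motors of the mitotic spindle) and 4 fell (Kif5b, Kif1b, Kif1c and Kif26a). All 6 are kinesins. Of the 29 kinesins tested 20.7% were called (6.90% higher and 13.8% lower), a share close to that of everything tested. Their median log2 difference was -0.11. Of everything tested, 20.4% was called, with 12.7% higher in MDD and 7.72% lower. The motor genes had 12% called, with 4% higher and 8% lower. For 17 motor genes (34%) MDD and CTRL arrays were fully separated, beside 36.5% of everything tested. Every MDD array lay above every CTRL array for 9 (18%, beside 20.1%) and below for 8 (16%, beside 16.4%). At an unadjusted p under 0.05 by limma, 8 motor genes were higher and 8 lower, beside 4093 and 3667 of the 19991 features. The 8 fully below and the 8 lower each include Kif18a. That gene was kept for testing only through its CTRL arrays, so its place in these counts supports nothing. Motor genes were thus called no more often than other genes. Their median log2 difference was -0.084, against -0.028 over everything tested.

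**Figure D1:**
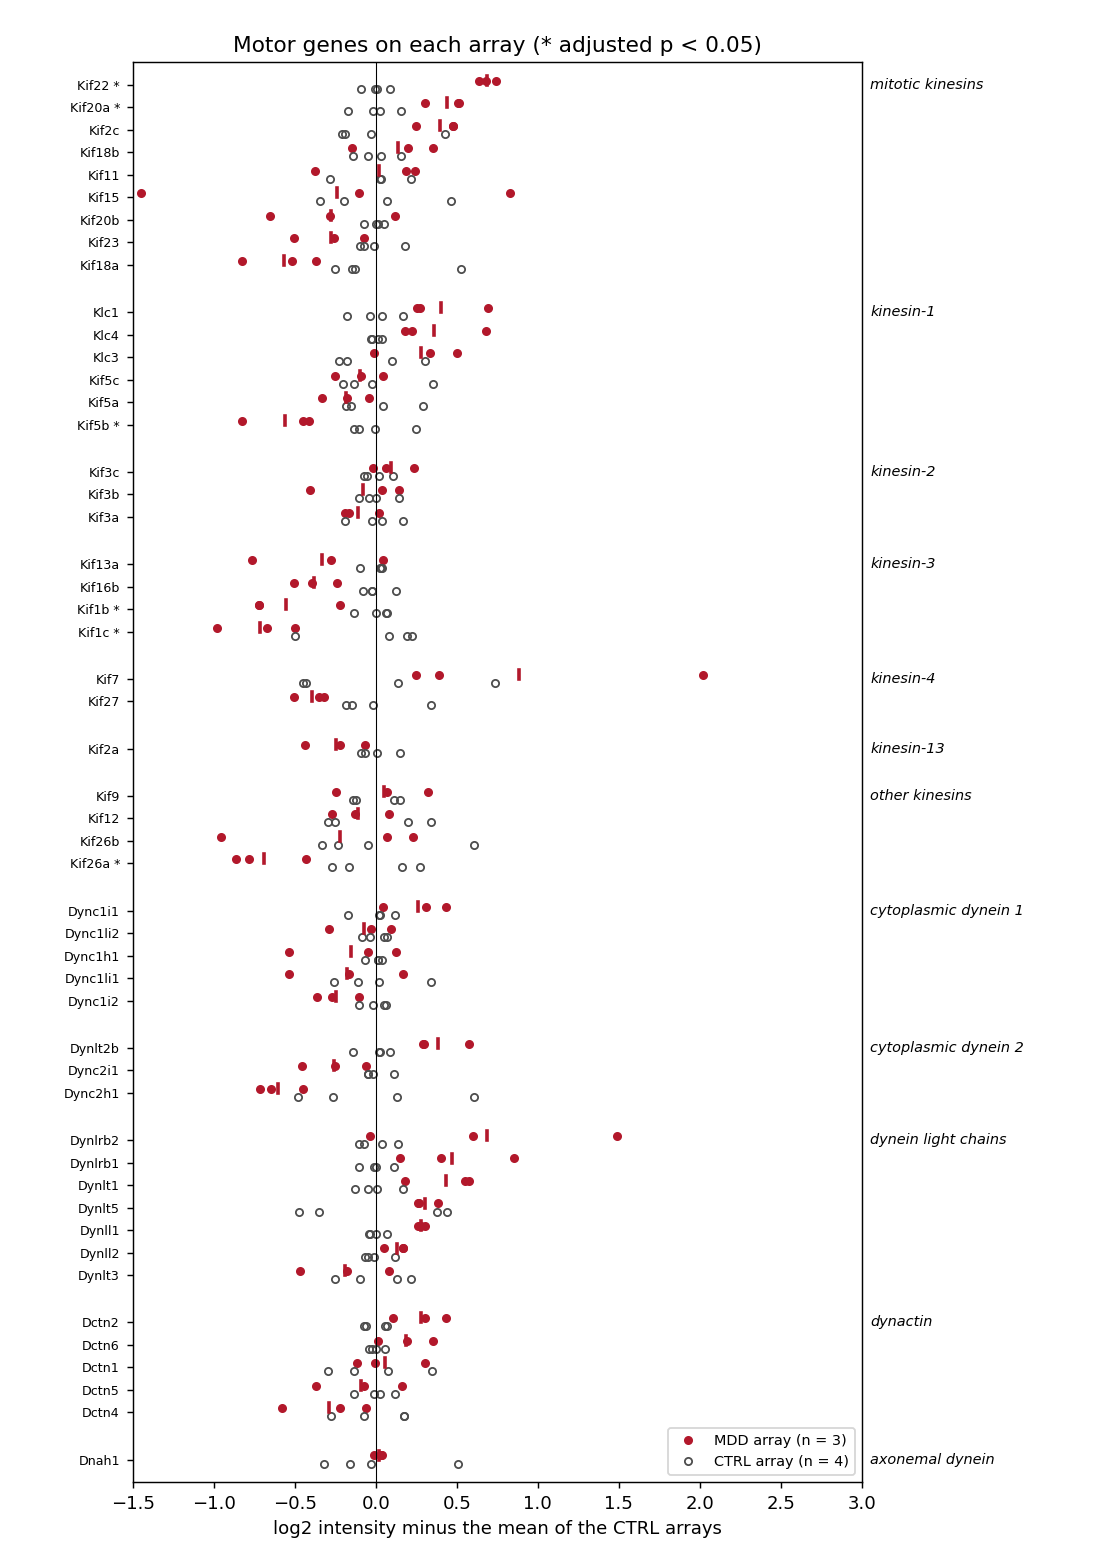
Log2 intensity of each of the 50 measured motor genes on each array, minus the gene's mean over the CTRL arrays, by family; filled points are MDD arrays, open points CTRL arrays, and the short bar is the MDD mean. Kif22 has the clearest separation among the called genes, while most families have points on both sides of 0 and overlapping groups.

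Among the 9 measured kinesins of the mitotic spindle, 2 rose (22.2%, beside 12.7% of everything tested), 0 fell and 7 did not pass. At an unadjusted p under 0.05 by limma, 2 of them were higher and 1 lower, beside 4093 and 3667 of 19991 features. Each value is a log2 intensity from which the 75th percentile of its array was subtracted, so values compare arrays for a gene and not genes with each other. Kif22, which binds chromosome arms and pushes them to the spindle equator, read -0.49, -0.53 and -0.43 on the MDD arrays, against -1.16, -1.08, -1.26 and -1.18 on the CTRL arrays. All MDD arrays lay well above all CTRL arrays, and both groups were tight. The rise was 1.61-fold (log2 0.69, SE 0.11, adjusted p = 0.0105 by limma). Kif20a, which brings the chromosomal passenger complex to the midzone for cytokinesis, read -2.51, -2.72 and -2.52 in MDD, against -2.998, -3.04, -3.20 and -2.87 in CTRL. The groups again did not overlap, but the gap between the lowest MDD and the highest CTRL array was small. It was 1.36-fold higher (log2 0.44, SE 0.13, adjusted p = 0.0434 by limma).

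The promoters of Kif22 and Kif20a, the genes that rose, and of Kif23, a close relative in function that did not pass, are printed to show the elements that mark many genes of the G2 and M phases of the cell cycle. Each window is the 250 bases before the annotated start in RefSeq (rat build GRCr8), 5′ to 3′ on the gene's strand, at chr1:191080879-191081128 on the minus strand for Kif22, chr18:26504172-26504421 on the plus strand for Kif20a and chr8:71320585-71320834 on the minus strand for Kif23. Capitals mark the CCAAT box (CCAAT or its reverse complement ATTGG, which NF-Y is known to bind) and the cell cycle homology region (TTTGAA or its reverse complement TTCAAA).
Kif22: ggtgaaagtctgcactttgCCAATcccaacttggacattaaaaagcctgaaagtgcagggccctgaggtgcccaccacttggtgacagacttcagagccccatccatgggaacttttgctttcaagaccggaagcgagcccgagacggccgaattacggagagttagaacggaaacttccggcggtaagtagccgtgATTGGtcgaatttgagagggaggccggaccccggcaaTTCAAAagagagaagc
Kif20a: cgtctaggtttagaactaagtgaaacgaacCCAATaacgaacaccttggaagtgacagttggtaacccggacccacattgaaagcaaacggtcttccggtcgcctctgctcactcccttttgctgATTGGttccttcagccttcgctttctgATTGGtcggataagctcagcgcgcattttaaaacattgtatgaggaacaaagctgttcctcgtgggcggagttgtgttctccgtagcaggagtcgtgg
Kif23: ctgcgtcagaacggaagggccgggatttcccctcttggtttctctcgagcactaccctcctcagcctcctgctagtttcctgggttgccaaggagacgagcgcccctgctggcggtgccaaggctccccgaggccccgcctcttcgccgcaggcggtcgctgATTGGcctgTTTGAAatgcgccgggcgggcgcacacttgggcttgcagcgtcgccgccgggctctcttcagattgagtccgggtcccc
Kif22 held 2 CCAAT matches and 1 TTTGAA match, Kif20a 3 and 0, and Kif23 1 and 1. Both motifs occurred together in 3 of the 9 mitotic kinesin windows (Kif22, Kif23 and Kif20b), in 1 of 33 windows of other motor genes and in 5.87% of 33469 promoter windows. CCAAT was present in 34.0% and TTTGAA in 16.2% of all windows, those with both included. The motifs overlapped nowhere in the printed windows, and a match is a description of the letters, not a binding site.

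The other mitotic kinesins did not move as a block. Kif23, the motor of centralspindlin, read -3.58, -3.33 and -3.15 in MDD, against -3.15, -3.09, -2.89 and -3.17 in CTRL (log2 -0.28, SE 0.14, adjusted p = 0.183). Kif11, which slides the spindle poles apart, read -4.44, -4.49 and -5.05 in MDD, against -4.65, -4.46, -4.96 and -4.65 in CTRL, a log2 difference of 0.019 (SE 0.19, adjusted p = 0.950). The groups overlapped for both. Kif2c, a depolymerase at centromeres, had a log2 difference of 0.40 (SE 0.18, adjusted p = 0.132), Kif18b 0.14 (SE 0.15, adjusted p = 0.531) and Kif20b -0.27 (SE 0.18, adjusted p = 0.282). Kif15, a spindle motor that can stand in for Kif11, spread from -6.56 to -4.28 over the MDD arrays, against -5.45 to -4.64 over the CTRL arrays, and its log2 difference of -0.24 turned to 0.36 without MDD replicate 3. Kif18a, which limits chromosome movement at the spindle equator, was well above background on all 4 CTRL arrays and on 0 of 3 MDD arrays. It read -6.35, -6.50 and -6.81 in MDD, against -5.46, -6.13, -6.24 and -6.11 in CTRL. By these signals CTRL was 1.48-fold brighter (adjusted p = 0.0862 by limma). The log2 difference was only -0.084 in the authors' deposited table and -0.035 with normexp. Kif18a was kept for testing only through its CTRL arrays, so its p supports nothing, and it is the 1 lower gene in the unadjusted count of mitotic kinesins. Setting each dim array to at least the lowest signal among probes well above background gave the same 1.48-fold.

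Markers of dividing cells were examined beside these motors. Of 10 measured, Cdk1, the kinase of mitotic entry, rose 1.44-fold (adjusted p = 0.0323) and 0 fell, with a median log2 difference of 0.15. Mki67, the common marker of cycling cells, averaged -1.32 ± 0.30 in MDD and -1.02 ± 0.13 in CTRL (SD, n = 3 and 4), and did not pass (log2 -0.30, SE 0.16, adjusted p = 0.207 by limma). The summed linear signal of the 10 markers, in units of the 75th percentile, was 4.36, 4.10 and 4.10 in MDD, against 3.93, 4.01, 3.69 and 3.96 in CTRL. It was slightly higher on each MDD array, and its part in the differences of Kif22 and Kif20a was not tested. Of the kinesins with other symbols, Kifc1, a minus-end motor that focuses spindle poles, rose 1.53-fold (-3.10 ± 0.13 in MDD, n = 3, and -3.71 ± 0.14 in CTRL, n = 4, SD, adjusted p = 0.0187), the only 1 of 3 measured that passed. The 4 measured markers of granule precursors had 0 calls (limma, 1 at an unadjusted p under 0.05).

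**Figure D2:**
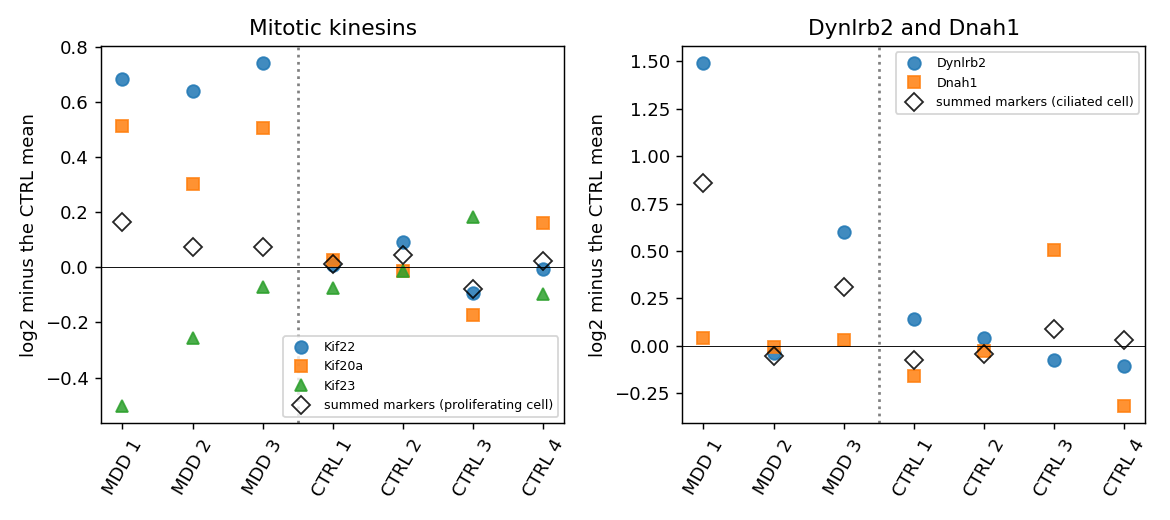
Log2 values on each array minus the mean of the CTRL arrays, for Kif22, Kif20a and Kif23 with the summed markers of dividing cells (left) and for Dynlrb2 and Dnah1 with the summed markers of ciliated cells (right); MDD arrays stand left of the dotted line and CTRL arrays right of it. Kif22 and Kif20a lie apart from CTRL on each MDD array, and Dynlrb2 and the ciliated markers share their highest array, MDD 1.

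Of the 17 Kif genes outside the mitotic set, 0 rose and 4 fell (23.5%, beside 7.72% of everything tested). At an unadjusted p under 0.05 by limma, 0 were higher and 6 lower, beside 4093 and 3667 of all 19991 features. This set leaves out Kif22 and Kif20a, and over all 29 kinesins 6.90% were called higher and 13.8% lower. With the length and signal trend removed, 0 of the 17 were called lower. The same held with no filter on dim probes and with replicates or slide rows as a block. Kif5b, the heavy chain of conventional kinesin that all tissues make, read -2.32, -1.91 and -1.95 in MDD, against -1.25, -1.64, -1.61 and -1.51 in CTRL. Every MDD array was below every CTRL array, and Kif5b was 1.48-fold lower (log2 -0.56, SE 0.15, adjusted p = 0.0380). Its neuronal relatives differed less. Kif5a read -1.99, -1.70 and -1.83 in MDD, against -1.37, -1.81, -1.61 and -1.84 in CTRL (log2 -0.18, SE 0.15, adjusted p = 0.399), and Kif5c had a log2 difference of -0.099 (SE 0.16, adjusted p = 0.677). Neither passed, and the differences between Kif5b and its relatives were not tested.

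The light chains of kinesin, which bind the cargo of these heavy chains, had positive differences and did not pass. Klc1 read 3.40, 2.96 and 2.98 in MDD, against 2.68, 2.88, 2.75 and 2.53 in CTRL, a log2 difference of 0.41 (SE 0.15, adjusted p = 0.0898). Klc4 read -0.35, -0.39 and 0.11 in MDD, against -0.53, -0.60, -0.56 and -0.60 in CTRL (log2 0.36, SE 0.15, adjusted p = 0.106). For both genes the groups did not overlap. Klc3 was well above background on 2 of 3 MDD and 2 of 4 CTRL arrays and had a log2 difference of 0.28 (SE 0.18, adjusted p = 0.287).

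The kinesin-3 family, fast motors of vesicles and endosomes, had the lowest family median, -0.47 over 4 measured genes, with 2 lower (50%, beside 7.72% of everything tested) and 0 higher (limma, with 3 and 0 at an unadjusted p under 0.05). With the length and signal trend removed the median of these 4 genes was -0.26, and 0 were called. Kif1b, which carries synaptic vesicle precursors and mitochondria, read 1.16, 1.66 and 1.16 in MDD, against 1.94, 1.75, 1.95 and 1.88 in CTRL. MDD 2 came close to the controls, and the other MDD arrays were clearly lower. Kif1b was 1.47-fold lower (log2 -0.55, SE 0.15, adjusted p = 0.0389), and its other probe had a log2 difference of -0.24 (adjusted p = 0.336 in a fit of all kept probes). Kif1c, a motor of vesicles in many cell types, read -1.01, -0.83 and -1.31 in MDD, against -0.83, -0.14, -0.26 and -0.11 in CTRL. CTRL 1 overlapped with the MDD arrays, and Kif1c was 1.64-fold lower (log2 -0.72, SE 0.21, adjusted p = 0.0433). Kif16b, which moves early endosomes, read -4.02, -4.17 and -4.28 in MDD, against -3.65, -3.80, -3.80 and -3.86 in CTRL, without overlap, and did not pass (log2 -0.38, SE 0.12, adjusted p = 0.0552). The log2 difference of Kif16b was -0.079 with the length and signal trend removed (adjusted p = 0.679) and -0.21 with normexp. It passed as lower with only probes detected on all 7 arrays (adjusted p = 0.0469 by limma). The other probe of Kif16b had a log2 difference of -0.76 (adjusted p = 0.119 in a fit of all kept probes). Kif13a, also a motor of endosomes, had a log2 difference of -0.33 (SE 0.18, adjusted p = 0.217 by limma) and ranged from 0.76 to 1.57 in MDD, against 1.43 to 1.56 in CTRL.

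The kinesin-2 motors, which drive transport into cilia and along axons, had no calls. The log2 differences were -0.11 for Kif3a (SE 0.13, adjusted p = 0.557), -0.076 for Kif3b (SE 0.16, adjusted p = 0.747) and 0.095 for Kif3c (SE 0.12, adjusted p = 0.581). By limma 0 of these 3 passed at an unadjusted p under 0.05. Kif2a, which depolymerises microtubule ends in growing axons, had a log2 difference of -0.24 (SE 0.13, adjusted p = 0.206).

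Among kinesins of other families, Kif26a fell. This atypical kinesin binds microtubules without moving and in mice restrains GDNF-Ret signalling in enteric neurons. It read -2.53, -2.18 and -2.61 in MDD, against -1.48, -2.02, -1.91 and -1.58 in CTRL, with no overlap, and was 1.61-fold lower (log2 -0.69, SE 0.18, adjusted p = 0.0316). Its relative Kif26b had a log2 difference of -0.22 (SE 0.32, adjusted p = 0.647). Kif7, which organises the tip of the cilium for Hedgehog signalling, had the largest difference of any motor gene, log2 0.89, but also one of the largest errors (SE 0.46, adjusted p = 0.187). It read -4.47, -4.62 and -2.84 in MDD, against -4.73, -5.29, -4.13 and -5.31 in CTRL. MDD 3 alone stood high, and without it the log2 difference was 0.32. Kif27, a relative of Kif7, read -6.01, -6.03 and -6.19 in MDD, against -5.83, -5.34, -5.87 and -5.70 in CTRL (log2 -0.39, SE 0.15, adjusted p = 0.100). Kif9 and Kif12 had log2 differences of 0.051 and -0.11 (adjusted p = 0.839 and 0.704).

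The calls for kinesins other than Kif22 rested on most of the arrays together. Kif22 kept its call without any 1 of the 7 arrays (adjusted p = 0.0107 to 0.0427). Kif26a and Kif1c kept theirs in 2 of the 7 such fits, and Kif5b, Kif1b and Kif20a in 1 of 7, with adjusted p reaching 0.0864, 0.115, 0.0909, 0.0969 and 0.112. Kif26a was called only without CTRL replicate 2 or MDD replicate 2, Kif1c only without CTRL replicate 1 or MDD replicate 2, and the others only without MDD replicate 2. The slide held CTRL replicates 1 to 3 in row 1, and CTRL replicate 4 with all MDD arrays in row 2. Within row 2 the log2 differences were 0.69 for Kif22, 0.28 for Kif20a, -0.55 for Kif5b, -0.55 for Kif1b, -0.94 for Kif1c and -0.85 for Kif26a, the same directions as over both rows. With 1 control array no motor gene passed there (3 at an unadjusted p under 0.05), nor with the row as a block (4 at an unadjusted p under 0.05), where 7 and 1 of 19991 features passed in all.

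**Figure D3:**
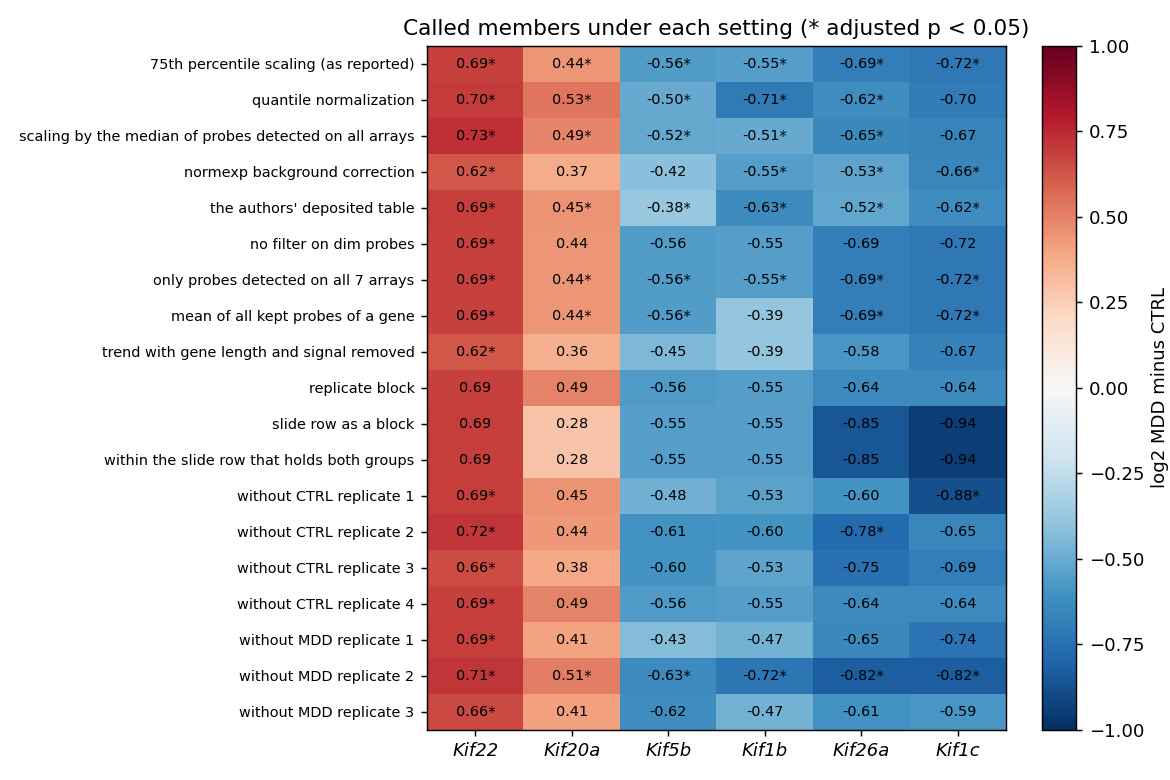
Log2 difference of MDD minus CTRL for the 6 called motor genes (columns) under each processing setting (lines), with the colour running from blue (lower in MDD) to red (higher in MDD) and a star where the adjusted p was under 0.05. The direction of all 6 is the same in all 18 alternatives, and Kif22 carries a star in 15 of them.

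No gene of cytoplasmic dynein or dynactin passed by its brightest probe. Of 20 measured, limma called 0, and 4 were higher and 1 lower at an unadjusted p under 0.05. The median log2 difference was 0.095, and the groups did not overlap for 7 (35.0%, beside 36.5% of everything tested). Dync1h1, the heavy chain that holds the motor of dynein 1, read 3.13, 3.30 and 2.65 in MDD, against 3.20, 3.11, 3.22 and 3.19 in CTRL. MDD 3 was low and the others lay among the controls, giving a log2 difference of -0.15 (SE 0.16, adjusted p = 0.517). The intermediate chain genes, whose products bind dynactin, differed in sign. Dync1i2, the form made in all tissues, read 1.91, 1.74 and 1.65 in MDD, against 2.08, 1.99, 1.91 and 2.06 in CTRL (log2 -0.24, SE 0.12, adjusted p = 0.162). It passed with quantile normalization (adjusted p = 0.0417) and in the authors' deposited table (adjusted p = 0.0384). Dync1i1, the form of neurons, had a log2 difference of 0.26 (SE 0.14, adjusted p = 0.189), but -0.17 with quantile normalization and -0.098 in the authors' deposited table. The light intermediate chain genes Dync1li1 and Dync1li2 had log2 differences of -0.18 (adjusted p = 0.546) and -0.074 (adjusted p = 0.701), and Dync1li2 passed as lower with quantile normalization (log2 -0.51, adjusted p = 0.0462) and in the authors' deposited table (log2 -0.50, adjusted p = 0.0289). Under those settings 8.01% and 8.85% of everything tested was called lower.

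Dynein light chains are small proteins that sit at the base of the dynein tail. Apart from Dynlt2b, which is given with dynein 2, they had 0 calls among 7 measured (limma, 3 higher and 0 lower at an unadjusted p under 0.05). Of these 7, 6 had a positive difference, but 4 with quantile normalization and in the authors' deposited table. Dynlt1 read 3.08, 2.68 and 3.06 in MDD, against 2.37, 2.67, 2.46 and 2.51 in CTRL (log2 0.44, SE 0.14, adjusted p = 0.0621). Dynlrb1, of the roadblock type, read 2.74, 3.00 and 3.45 in MDD, against 2.49, 2.59, 2.59 and 2.71 in CTRL (log2 0.47, SE 0.17, adjusted p = 0.0853). Dynll1, the LC8 chain that many other proteins bind too, read 4.68, 4.70 and 4.66 in MDD, against 4.40, 4.36, 4.47 and 4.36 in CTRL (log2 0.28, SE 0.10, adjusted p = 0.0858). In these 3 genes all MDD arrays were above all CTRL arrays. The log2 difference of Dynll1 was 0.33 with scaling by the median of detected probes, but -0.21 with quantile normalization and -0.16 in the authors' deposited table, and the cause was not tested. Its relative Dynll2 had a log2 difference of 0.13 (SE 0.11, adjusted p = 0.413), against -0.42 and -0.34 under those settings. Dynlt3 was the exception, at -0.19 (SE 0.17, adjusted p = 0.452), and Dynlt5 stood at 0.31 (SE 0.24, adjusted p = 0.378). RefSeq lists pseudogenes or like-named copies of Dynll1, Dynlt1 and Dctn5, and whether the probes also bind those transcripts was not tested.

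Dynein 2, the return motor of cilia, had members on both sides. Its heavy chain Dync2h1 read -4.60, -4.80 and -4.87 in MDD, against -3.55, -4.42, -4.03 and -4.63 in CTRL (log2 -0.60, SE 0.25, adjusted p = 0.111). The dimmer probe of Dync2h1 had -5.24, -5.02 and -5.42 in MDD, against -4.65, -4.55, -4.57 and -4.97 in CTRL, and passed as lower in the fit of all kept probes (log2 -0.54, adjusted p = 0.0422 by limma). All MDD arrays lay below all CTRL arrays with the dimmer probe, while with the brighter probe MDD 1 lay just above CTRL 4. The difference of the brighter Dync2h1 probe was -0.18 with normexp, -0.21 in the authors' deposited table, -0.31 with the length and signal trend removed and -0.12 with the slide row as a block. Its intermediate chain Dync2i1 read -1.47, -1.27 and -1.67 in MDD, against -1.10, -1.23, -1.26 and -1.26 in CTRL (log2 -0.26, SE 0.13, adjusted p = 0.181). Its light chain Dynlt2b went the other way and read -0.66, -0.65 and -0.38 in MDD, against -0.86, -0.93, -1.09 and -0.92 in CTRL (log2 0.39, SE 0.13, adjusted p = 0.0604). Dynlt2b passed with quantile normalization (adjusted p = 0.0430), with scaling by the median of detected probes (adjusted p = 0.0376) and in the authors' deposited table (adjusted p = 0.0349). Among 19 measured genes of intraflagellar transport, the cargo trains that dynein 2 and kinesin-2 pull, 2 rose and 1 fell, with a median log2 difference of 0.0041. Ift27 rose 1.84-fold (adjusted p = 0.0103) and Ift22 1.60-fold (adjusted p = 0.0361), and Ift80 was 1.65-fold lower (adjusted p = 0.0273).

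Dynactin, which dynein needs for long runs, showed small differences, with 0 of 5 measured genes passing (limma, 0 at an unadjusted p under 0.05). Dctn1, the arm that holds the microtubule, had a log2 difference of 0.060 (SE 0.18, adjusted p = 0.828). Dctn2, the shoulder subunit dynamitin, read 2.43, 2.22 and 2.56 in MDD, against 2.06, 2.19, 2.18 and 2.05 in CTRL, a log2 difference of 0.28 (SE 0.12, adjusted p = 0.130) with no overlap. The pointed-end subunits Dctn4, Dctn5 and Dctn6 had log2 differences of -0.29, -0.092 and 0.19 (adjusted p = 0.249, 0.675 and 0.282). Dctn3 was measured by a probe well above background on 1 of 7 arrays and was not tested, nor were Kif28p and Kif2b, with 0 of 7. Of the 6 dynactin subunits with other symbols, Actr1a, which forms the filament of the complex, rose 1.63-fold (0.72 ± 0.13 in MDD, n = 3, and 0.018 ± 0.23 in CTRL, n = 4, SD, adjusted p = 0.0205), and 0 fell.

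The single axonemal dynein measured was Dnah1, a heavy chain of the inner arm. Its probe was well above background on 3 of 3 MDD and 3 of 4 CTRL arrays. Dnah1 did not differ beyond its spread. It read -5.69, -5.74 and -5.70 in MDD, against -5.89, -5.76, -5.23 and -6.05 in CTRL, a log2 difference of 0.021 (SE 0.19, adjusted p = 0.946 by limma). Dynlrb2, a roadblock light chain known from ciliated cells, read -0.81, -2.34 and -1.70 in MDD, against -2.16, -2.26, -2.38 and -2.41 in CTRL. Only MDD 1 and MDD 3 were above the controls (log2 0.69, SE 0.31, adjusted p = 0.138), and both probes of the gene gave 0.69. It passed without MDD replicate 2 (log2 1.05, adjusted p = 0.0222) and was 0.28 without MDD replicate 1. Of 9 measured markers of ciliated cells, 1 rose (Tmem212, 1.94-fold, adjusted p = 0.0465) and 0 fell, with a median log2 difference of 0.26. Their summed linear signal was 1.84, 0.980 and 1.26 in MDD, against 0.965, 0.985, 1.08 and 1.04 in CTRL, highest on the same arrays as Dynlrb2, and their part in its difference was not tested. Of 19 measured genes for other axonemal dynein chains and their assembly, Dnai2, of the outer arm, rose 1.61-fold (adjusted p = 0.0392) and Dnaaf8 was 1.38-fold lower (adjusted p = 0.0436).

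Light chain genes had mostly positive differences and the other motor genes mostly negative ones. Grouped after their values had been seen, and so given with no test, the 11 light chain genes of kinesin and dynein had a median log2 difference of 0.36, with 10 positive (9503 of 19991 over everything tested), 0 called and 6 without overlap (54.5%, beside 36.5%). The 39 other motor genes had a median of -0.15, with 13 positive. For the light chains the median was 0.18 with quantile normalization and 0.14 in the authors' deposited table, with 8 of 11 positive in each.

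Gene length ran alongside this split. Across the 50 motor genes the log2 difference and the genomic length in RefSeq had a Spearman's rho of -0.57, and across 11966 named genes -0.40. All of these values come from the same 7 arrays, and genes are not independent replicates. The 13 motor genes under 20 kb had a median difference of 0.28, against 0.15 for 5839 named genes of that length. The 18 over 50 kb had a median of -0.24, with 4 positive, against -0.22 for 3071 named genes. In the range of 20 to 50 kb, 19 motor genes had a median of -0.074 and 3056 named genes -0.084. With each array's trend with length and signal removed, the light chain median was 0.27 and that of the 26 Kif genes -0.057, against 0.36 and -0.20 before. Kif22, at 15.1 kb, then had a log2 difference of 0.62 (adjusted p = 0.0233), and it was the only motor gene called in that fit. Kif26a, Kif5b, Kif1c, Kif1b and Kif20a had log2 differences of -0.58, -0.45, -0.67, -0.39 and 0.36 and adjusted p of 0.0558, 0.0564, 0.0696, 0.0773 and 0.0844, with 6.58% of 11966 named genes called higher and 4.70% lower in that fit. What links the difference to length was not tested.

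**Figure D4:**
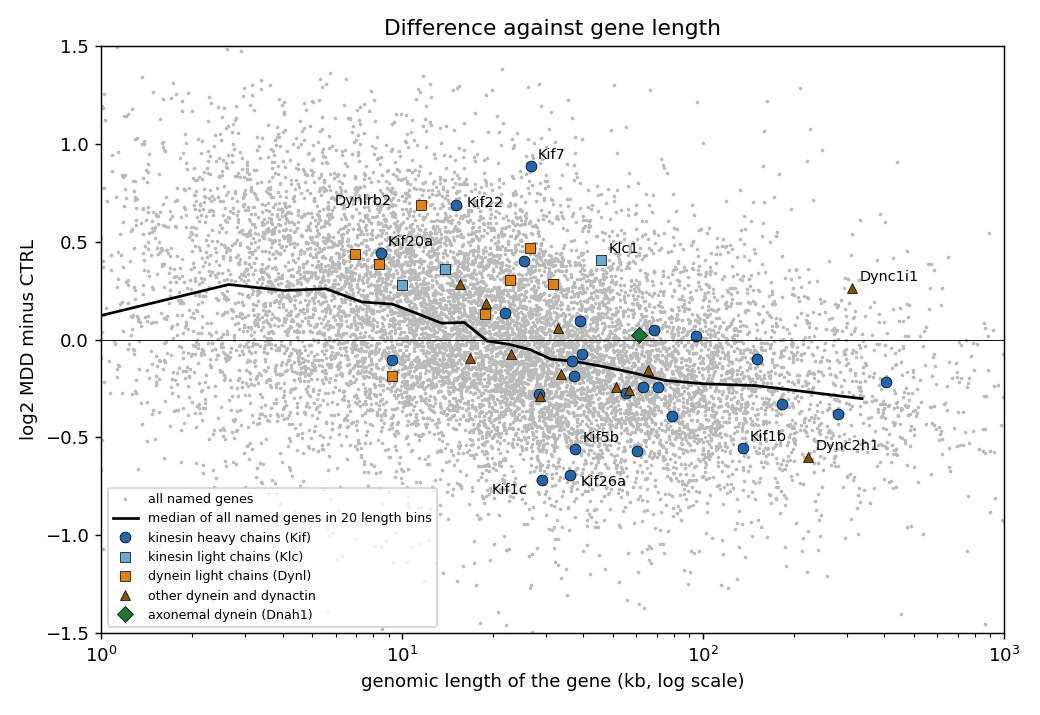
Log2 difference of MDD minus CTRL against genomic gene length in kb (log scale) for the 50 motor genes (coloured symbols) and all named genes tested (grey points, those beyond 1.5 in either direction or outside the length range not drawn), with the running median of the named genes as a black line. Light chain genes have mostly positive values and a median length of 13.9 kb, with Klc1 the longest at 45.8 kb. Long heavy chain genes such as Kif1b and Dync2h1 lie below 0.

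Lists of genes that act with the motors are read beside the 12.7% called higher and 7.72% called lower over everything tested. Of 17 measured regulators and adaptors of dynein, Snapin, which couples dynein to late endosomes, rose 1.36-fold (adjusted p = 0.0388, 5.88% of the list) and 0 fell, with a median log2 difference of -0.24. Of 24 adaptors and regulators of kinesin, 0 rose and 2 fell (8.33%), with a median of -0.15. Rhot1, which ties mitochondria to kinesin-1, was 1.58-fold lower (adjusted p = 0.0231), and Ppfia2, a liprin that binds kinesin-3 cargo, 1.94-fold lower (adjusted p = 0.0459). Of 28 proteins bound to the microtubule track, 1 rose (3.57%) and 4 fell (14.3%), with a median of -0.22. Tppp3, a tubulin polymerisation protein, rose 2.05-fold (adjusted p = 0.0186), while the severing enzyme gene Spast was 1.58-fold (adjusted p = 0.0164) and the plus-end gene Clasp2 1.30-fold lower (adjusted p = 0.0417). Granule neuron markers, which share these samples, had 0 of 10 higher and 4 lower, with a summed linear signal of 73.0 to 81.4 in MDD, against 80.2 to 89.8 in CTRL, and their part in the lower kinesins was not tested. Purkinje cell markers had 1 of 7 higher and 2 lower, oligodendrocyte markers 0 and 1 of 8, microglial markers 6 and 1 of 8, and choroid plexus markers 0 and 0 of 5 (limma, 2 of these 5 higher at an unadjusted p under 0.05). All 5 choroid plexus markers had positive differences, with a median log2 of 0.50. Their summed linear signal was 201, 113 and 272 in MDD, against 96.7, 132, 105 and 115 in CTRL. It was highest on MDD 3 and MDD 1, the arrays where Dynlrb2 was high, and its part in that difference was not tested.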

How the data were processed

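Total RNA of the cerebellum was labelled with Cy3 and hybridised to Agilent rat arrays, per the labels' protocols. The deposited scanner tables hold linear intensities made with Feature Extraction 10.7.3.1 on a grid of rat build rn4, per the file headers, background-subtracted and detrended within each array but not normalized between arrays. Spot flags, such as the one for clear signal over background, are deposited as a score of 0 or 1. A further deposited table holds the authors' normalized intensity, with a method not given in the sources used here and columns that show the group only. 

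For the main values, the 75th percentile of an array (1140 to 2105 intensity units) was taken as its scale and the log2 ratio of processed signal to it was used, without control spots and outlier spots, averaged over the spots of a probe. Spots clearly over background made up 74.1% to 79.6% of an array, none being saturated (0), and precision is limited by how many arrays there are. Probes over background on 3 or more of the 7 arrays were kept (22255 of 30367), an array counting when at least 50% of a probe's spots were. Symbols came from matching the accession to the RefSeq table of GRCr8, which named 18355 probes. The brightest kept probe stood for a gene, giving 11966 named genes and 8025 unnamed probes. Of 12 motor genes with several kept probes, 0 had probes that differed in sign. No motor gene had a missing value on any array.

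MDD was compared with CTRL with lmFit and eBayes of limma 3.58.1 (R 4.3.3, two-sided) over all 19991 features at an adjusted p of 0.05, checked on simulated arrays. Groups come from the sample titles. The named genes are all members past the threshold, central neuronal and mitotic motors, and from each further list up to 3 that passed by smallest p; all other measured members are also given. The members and lists were chosen with earlier results of these data known. Promoter windows were found for 42 of the 50 motor genes. Alternatives were other scalings, normexp with an offset of 50 (on median signals, since mean signals are not used here), the authors' table, other probe filters, the mean of a gene's probes, removal of the length and signal trend, replicate and slide row blocks, and leaving out each array.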

Additional observations from a re-analysis of the deposited data

Results flagged for a closer look

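Within the 4 CTRL arrays, 1 array stood far from the other 3 for 2 of the 50 motor genes, by a gap of 0.921 and 0.836 of the group's range. Chance gives about 1 in 20 groups such a gap. For Kif13a, CTRL 3 read 1.43 while the other controls lay between 1.55 and 1.56. For Kif18a, CTRL 1 read -5.46 while the other controls lay between -6.24 and -6.11. Kif18a was well above background on 0 of 3 MDD arrays, so the size of its difference is uncertain.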

How the results depend on the processing

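The 6 called kinesins kept their direction under all 18 alternatives, and Kif22 kept its call in 15, Kif26a in 8 and each of the others in 6. Motor genes called higher numbered 2, but 3 with quantile normalization, with median scaling and in the authors' table. They numbered 1 with normexp, with no filter on dim probes and with the length and signal trend removed. With the replicate block or the slide row as a block they numbered 0, and without 1 array 1 to 4. Those called lower numbered 4, but 6 in the authors' table, and 5 with quantile normalization and with only probes detected on all 7 arrays. They numbered 3 with median scaling, with normexp and with the mean of a gene's probes. With no filter, the trend removed, the replicate block or the row block they numbered 0, and without 1 array 0 to 4. The deviations of same-numbered arrays of the groups had correlations of 0.095, -0.18 and 0.22. With so few arrays these cannot decide whether the numbers pair the arrays. With the replicate block 0 of 19991 features passed (6159 at an unadjusted p under 0.05). In all, 4081 features were called, but 1592 with no filter, 1349 of 11966 with the trend removed, and 1022 to 5234 without 1 array. The median log2 change of dynein and dynactin was 0.095, but -0.16 with quantile normalization, -0.12 with the authors' deposited table, 0.0055 with the trend removed and 0.039 to 0.16 without 1 array. That of Dnah1 was 0.021, but 0.18 with quantile normalization, 0.067 with median scaling, 0.078 with normexp, 0.081 with the authors' table, 0.22 with the trend removed, -0.085 with the replicate block, 0.34 with the row block or within row 2, and -0.085 to 0.19 without 1 array. The cause of these shifts was not tested.

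Some motor genes that did not pass changed sign. With quantile normalization the log2 change was -0.21 for Dynll1, -0.17 for Dync1i1, -0.42 for Dynll2, 0.056 for Kif12 and -0.061 for Dctn1. With the authors' table it was -0.16 for Dynll1, -0.098 for Dync1i1, -0.34 for Dynll2, 0.0039 for Kif5c, 0.11 for Kif15, -0.021 for Dctn1 and -0.019 for Kif9. With the trend removed it was -0.15 for Dynll2, 0.11 for Kif26b and 0.15 for Kif5c, and with normexp 0.041 for Kif12 and 0.10 for Kif15. With the row block or within row 2 it was -0.029 for Kif2c, -0.073 for Dynlt5, 0.0021 for Kif5a, 0.061 for Dynlt3, -0.022 for Kif18b, 0.078 for Kif3a, 0.10 for Kif5c, 0.14 for Kif12, -0.063 for Kif9 and -0.0098 for Kif11. Without 1 array the change ranged from -0.29 to 0.037 for Dync1h1, -0.35 to 0.0024 for Dync1li1, -0.44 to 0.15 for Kif26b, -0.22 to 0.047 for Dctn5, -0.17 to 0.019 for Kif5c, -0.16 to 0.034 for Dync1li2, -0.20 to 0.0073 for Kif12, -0.78 to 0.36 for Kif15, -0.18 to 0.089 for Kif3b, -0.061 to 0.18 for Dctn1, -0.087 to 0.20 for Kif9 and -0.091 to 0.21 for Kif11.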
